A study of Homo sapiens with 12 samples.

Results

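FOXO transcription factors and a set of their target genes were followed in 2 human leukemia cell lines after knockdown of USP15, a deubiquitinase. The 9 genes were FOXO1, FOXO3 and FOXO4, the antioxidant enzyme gene CAT, the alpha-arrestin genes TXNIP, ARRDC3 and ARRDC4, the cyclin gene CCNG2 and the repressor gene BCL6. All 9 were among the 23238 genes found in both deposited tables, where KBM7 had 26226 genes and K562 had 28328. They were picked by name, CAT and ARRDC3 for a difference between the lines and CCNG2 for its decrease in K562. Their values in those contrasts are therefore given as a description, with no test.

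KBM7 and K562 are cell lines from chronic myeloid leukemia, and KBM7 is near-haploid. Cells were transfected with Lipofectamine RNAiMAX and 1 siGENOME SMARTpool, either against USP15 (siUSP15) or non-targeting (siCtrl), and RNA was taken after 72 h. KBM7 gave 2 libraries per siRNA and K562 gave 4. All groups thus carried an siRNA pool and the transfection reagent. A single pool per target was used. Whether replicates came from separate cultures is not stated, and p-values here cover no more than the variation among these libraries.

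FOXO proteins are forkhead factors that act downstream of insulin and growth factor signaling. AKT and SGK kinases phosphorylate them, YWHA proteins then hold them in the cytoplasm, and when this input falls they enter the nucleus and switch on genes for cell-cycle arrest, removal of reactive oxygen, metabolism and cell death. In blood, they are known for keeping hematopoietic stem cells quiescent and for limiting their oxidative stress. Their activity is set largely at the protein level, by phosphorylation, acetylation and ubiquitination, which RNA counts do not measure.

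Total counts were 23020401 to 43566543 per library. USP15 RNA was at 53.4% of the control level in KBM7 and 52.4% in K562, and the groups did not overlap in either line. The first principal component of K562 (71.0% of variance) separated a first set of libraries, replicates 1 and 2, from a second, replicates 3 and 4. Mitochondrially encoded genes took 4.83 to 5.43% of counts in the first set, 3.20 to 3.27% in the second and 2.06 to 2.67% in KBM7. These sets follow the sample names, no source says which libraries were made together, and the K562 fit held a term for the set. Summed CPM (counts scaled by TMM and to a common library total) of 4 genes of the leukemia's origin (BCR, ABL1, KIT and CD33) was 429 in both siCtrl libraries of KBM7 and 525 to 566 in those of K562. In siCtrl libraries of KBM7, the erythroid and megakaryocytic genes ITGA2B, HBE1, GATA1 and HBG2 had 61.1 to 71.4, 44.4 to 55.6, 32.0 to 33.2 and 13.5 to 18.8 CPM, and HBG1 was under 1 CPM. Of the granulocytic and monocytic genes, CD14 and ELANE were under 1 CPM in both lines, and MPO, PRTN3 and CEBPA also in K562.

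Catalase had the highest level of the 9 genes in both lines. Per kilobase of exon, siCtrl levels in KBM7 ran from CAT (28.3 ± 2.13 CPM per kb, SD, n = 2) through FOXO4 (15.7 ± 0.387), TXNIP (14.5 ± 0.685), FOXO3 (9.25 ± 0.377), CCNG2 (6.38 ± 0.114), FOXO1 (3.91 ± 0.0101), ARRDC4 (1.42 ± 0.0515) and ARRDC3 (0.776 ± 0.0317) to BCL6 (0.206 ± 0.0117). No neighbours in this order overlapped between their 2 libraries. The K562 order was CAT (43.5 ± 2.89 CPM per kb, SD, n = 4), TXNIP (31.2 ± 3.59), FOXO4 (12.3 ± 0.301), ARRDC3 (7.0 ± 1.16), FOXO3 (6.86 ± 1.46), ARRDC4 (4.87 ± 0.452), BCL6 (0.925 ± 0.202), CCNG2 (0.723 ± 0.0991) and FOXO1 (0.682 ± 0.0751). Here the ranges of ARRDC3 and FOXO3 overlapped, as did those of BCL6 and CCNG2 and of CCNG2 and FOXO1. KBM7 thus held more FOXO1 and CCNG2 RNA than K562, and K562 more of the 3 alpha-arrestins and BCL6. Since each line was sequenced and counted in a table of its own, cell line and run cannot be told apart in these levels, and they were not tested.

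**Figure D1:**
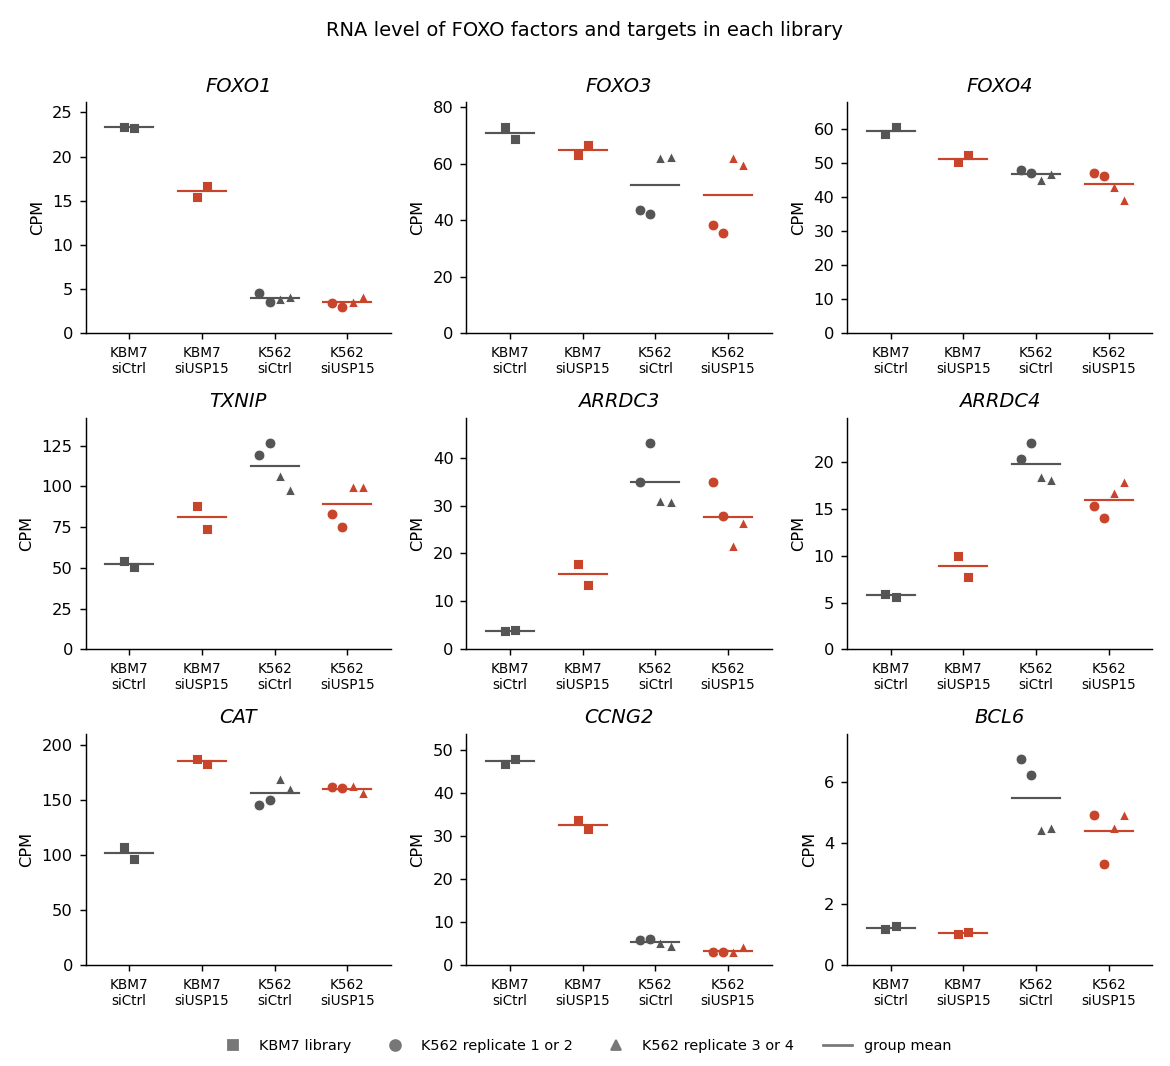
RNA level in CPM (counts scaled to a common library total, linear axis from 0) of the 9 genes in each of 12 libraries, by cell line and siRNA. Points are libraries and bars are group means. In KBM7 the siUSP15 libraries lay apart from the siCtrl libraries for every gene, whereas in K562 only ARRDC4 and CCNG2 showed no overlap. With 2 libraries per group in KBM7, lying apart is a weak criterion, and BCL6 met it at an edgeR adjusted p of 0.583. The share of all genes that lay apart was not counted, so it does not mark out these 9. CAT, ARRDC3 and CCNG2 had been chosen on their responses.

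To ask how the genes responded to USP15 knockdown in KBM7, siUSP15 was compared with siCtrl. TXNIP and ARRDC4 rose, FOXO1, FOXO4 and CCNG2 fell, and FOXO3 and BCL6 passed no threshold. Of the 7 genes tested here, 2 were higher and 3 lower at an edgeR adjusted p under 0.05. Over all 14980 genes tested, 29.0% were called, 13.2% higher and 15.8% lower. This count of 4345 genes was 2214 and 2651 without siCtrl replicate 1 or 2. In bulk RNA, fewer cells that express a gene and less RNA per cell cannot be told apart.

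In K562, TXNIP and ARRDC4 moved the other way, to 79.4% and 81.0% of the control level. Of the 6 genes tested there, these 2 were called lower and 0 higher, both by edgeR and limma-voom, whereas DESeq2 called ARRDC4 and not TXNIP. At an unadjusted edgeR p under 0.05, 3 of 6 passed, with FOXO3 added and all of them lower. At that limit, 4507 of all 13731 genes passed. Over all 13731 genes, 15.8% were called, 6.88% higher and 8.90% lower. This count of 2167 genes was 860 and 555 without siCtrl replicate 1 or 2 and 820 and 1344 without siUSP15 replicate 1 or 2. The K562 calls depended on 1 library set, as described with these genes.

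The difference between the 2 responses was tested in 1 fit over the 12 libraries. As with the levels, cell line and run cannot be told apart in this difference. Again TXNIP and ARRDC4 passed, both higher in KBM7 than in K562, as 2 of 6 genes tested. Over all 15833 genes in this fit, 16.0% were called, 7.94% with a higher and 8.03% with a lower response in KBM7. The count of 2529 was 1581 and 1326 without KBM7 siCtrl replicate 1 or 2 and 1372 without KBM7 siUSP15 replicate 1. FOXO1, FOXO3, FOXO4 and BCL6 did not pass this test. A difference in their responses was not detectable at this depth and number of libraries.

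**Figure D2:**
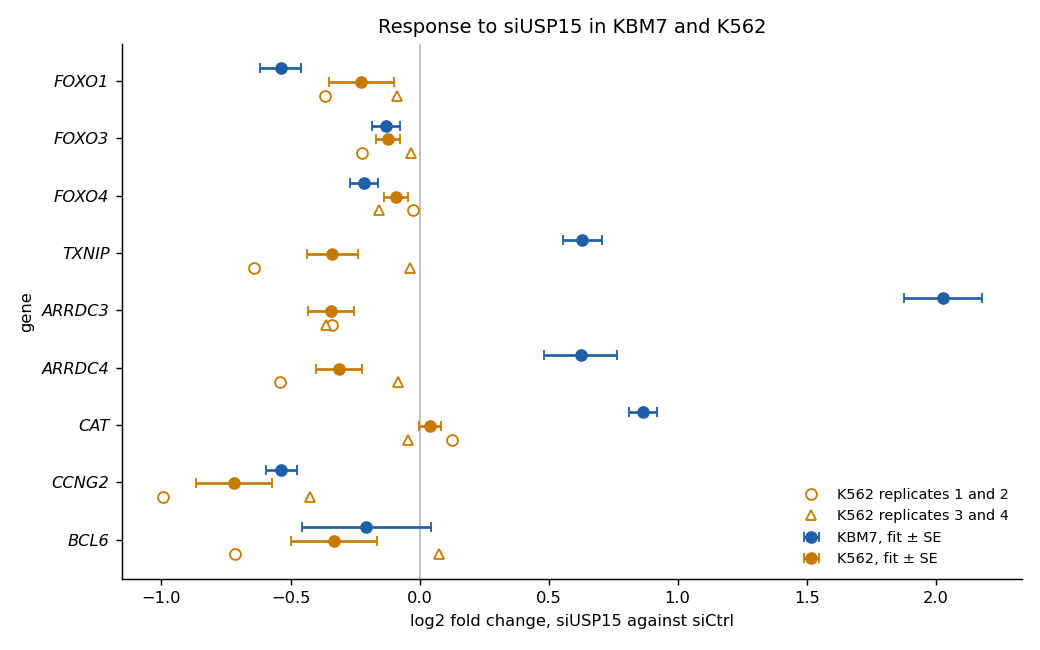
Log2 fold change of siUSP15 against siCtrl for the 9 genes, in KBM7 (blue) and K562 (filled orange), with the standard error of the edgeR fit as bars. Open symbols give the K562 response within replicates 1 and 2 (circles) and within replicates 3 and 4 (triangles). The alpha-arrestin genes and CAT lay above 0 in KBM7, and TXNIP and ARRDC4 were near -0.64 and -0.54 in the first K562 set and near 0 in the second.

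FOXO1 (ENSG00000150907, chromosome 13 of hg38, 40555667 to 40666597, minus strand) encodes the FOXO factor best known from insulin signaling and from lymphoid development. In KBM7, it had 23.3 and 23.2 CPM in siCtrl replicates 1 and 2 and 15.4 and 16.7 CPM in siUSP15 replicates 1 and 2. All control libraries were above all knockdown libraries. FOXO1 fell by 0.54 on the log2 scale (SE 0.079, edgeR adjusted p = 0.000393). In K562, the level was low, at 4.62, 3.54, 3.94 and 4.15 CPM in siCtrl replicates 1 to 4 and 3.41, 2.99, 3.52 and 4.12 CPM in siUSP15. These groups overlapped, and the log2 fold change of -0.23 (SE 0.12) had an edgeR adjusted p of 0.231.

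FOXO3 (ENSG00000118689, chromosome 6, 108559835 to 108684774, plus strand) is the family member most often linked to stem cell quiescence. It had 73.0 and 68.9 CPM in siCtrl and 63.1 and 66.8 CPM in siUSP15 libraries of KBM7. The 4 values did not overlap by group, but the log2 fold change of -0.13 (SE 0.0533) had an edgeR adjusted p of 0.0865. Without siUSP15 replicate 2, it was called (log2 fold change -0.17, adjusted p = 0.0193). In K562, FOXO3 followed the library set more than the siRNA. The siCtrl libraries had 43.6 and 42.3 CPM in the first set and 62.2 and 62.4 in the second, against 38.3 and 35.7 and then 62.0 and 59.6 CPM in siUSP15. Within each set both siUSP15 libraries were below both controls, and the log2 fold change was -0.12 (SE 0.0473, edgeR adjusted p = 0.0964). FOXO3 has a near-identical copy, FOXO3B, to which 41 to 107 counts per library were assigned, so a part of its reads is uncertain.

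FOXO4 (ENSG00000184481, chromosome X, 71096197 to 71103535, plus strand) is a further broadly expressed FOXO factor. It had 58.5 and 60.6 CPM in siCtrl and 50.2 and 52.4 CPM in siUSP15 libraries of KBM7. It fell by 0.22 on the log2 scale (SE 0.0531, edgeR adjusted p = 0.0102). The call was lost without siCtrl replicate 1 (adjusted p = 0.0604) or siCtrl replicate 2 (0.114) and with DESeq2 (0.0603). K562 showed 47.9, 47.0, 45.2 and 46.7 CPM in siCtrl and 47.2, 46.1, 43.1 and 39.2 CPM in siUSP15. The groups overlapped in K562, and the log2 fold change of -0.09 (SE 0.0457) was not called (edgeR adjusted p = 0.191). The differences between the line responses were -0.31 (SE 0.152, edgeR adjusted p = 0.187) for FOXO1, -0.0021 (SE 0.0786, 0.990) for FOXO3 and -0.12 (SE 0.0794, 0.335) for FOXO4 on the log2 scale. The remaining family member, FOXO6, had 1 to 14 counts per library and did not pass the filter.

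Alpha-arrestins are adaptors that bring ubiquitin ligases of the NEDD4 type to membrane proteins. TXNIP binds and inhibits thioredoxin and promotes uptake of glucose transporters from the cell surface, and ARRDC4, its close relative, also acts on glucose uptake. Both are known targets of the glucose-sensing factor MLXIP with its partner MLX, and TXNIP is also described as a FOXO target. Since TXNIP and ARRDC4 changed together, their promoter windows are shown, each from 250 bases before to 50 bases after a RefSeq start (GRCh38.p14). The TXNIP window is chr1:145996530-145996829 on the minus strand and the ARRDC4 window chr15:97960453-97960752 on the plus strand. The window of an inner start of ARRDC3, chr5:91380048-91380347 on the minus strand, is given for comparison. Capitals mark the forkhead core GTAAACA, the E-box CACGTG and the paired half-sites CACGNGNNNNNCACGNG, the form of a carbohydrate response element, each searched on both strands.
TXNIP: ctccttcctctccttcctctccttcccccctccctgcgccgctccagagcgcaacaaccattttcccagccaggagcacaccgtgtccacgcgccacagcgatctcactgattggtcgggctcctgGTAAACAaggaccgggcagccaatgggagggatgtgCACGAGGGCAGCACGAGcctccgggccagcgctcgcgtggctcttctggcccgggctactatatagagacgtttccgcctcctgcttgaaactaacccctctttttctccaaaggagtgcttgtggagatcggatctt
ARRDC4: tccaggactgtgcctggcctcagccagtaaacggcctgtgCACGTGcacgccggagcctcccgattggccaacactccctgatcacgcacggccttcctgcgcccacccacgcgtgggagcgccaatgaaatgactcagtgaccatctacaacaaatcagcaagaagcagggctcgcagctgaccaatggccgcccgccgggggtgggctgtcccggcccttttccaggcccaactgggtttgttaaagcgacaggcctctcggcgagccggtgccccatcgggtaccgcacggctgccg
ARRDC3: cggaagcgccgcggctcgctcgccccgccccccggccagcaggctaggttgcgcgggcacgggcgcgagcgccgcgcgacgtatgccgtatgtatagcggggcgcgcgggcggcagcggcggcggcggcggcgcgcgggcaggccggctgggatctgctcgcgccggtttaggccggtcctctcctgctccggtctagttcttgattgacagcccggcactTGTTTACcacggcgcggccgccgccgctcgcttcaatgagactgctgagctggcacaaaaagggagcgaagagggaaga

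The TXNIP window held 1 forkhead core, beginning 124 bases before the start, and 1 pair of half-sites, beginning 88 bases before it. ARRDC4 had 1 E-box, 210 bases before its start, and the inner ARRDC3 window 1 forkhead core on the opposite strand, 29 bases before its start. The window of the outer ARRDC3 start, chr5:91383268-91383567, held none of the marked forms. Nor did the window of an inner TXNIP start, chr1:145995695-145995994. Over 35116 RefSeq windows of this length, 3.42% held GTAAACA, 7.26% held CACGTG and 0.057% (20 windows) held the pair. Of the 15 windows of the 9 genes, 3 held GTAAACA (FOXO4, TXNIP, ARRDC3), 2 held CACGTG (ARRDC4, CCNG2) and 1 held the pair. The paired form was added after the TXNIP sequence had been read. These matches describe letters in a window and were not tested for binding.

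TXNIP (ENSG00000265972, chromosome 1 of hg38, 145992435 to 145996600, minus strand) rose in KBM7 and fell in part of the K562 libraries. KBM7 had 54.2 and 50.7 CPM in siCtrl and 88.2 and 74.1 CPM in siUSP15. Both knockdown libraries were above both controls, and TXNIP rose by 0.63 on the log2 scale (SE 0.0747, edgeR adjusted p = 8.37e-05), to 155% of the control mean. In K562, siCtrl replicates 1 to 4 had 119, 127, 107 and 97.7 CPM and siUSP15 replicates 83.1, 75.3, 99.4 and 99.7 CPM. Replicates 1 and 2 of siUSP15 were below every control, whereas replicates 3 and 4 lay between the 2 controls of their own set. The K562 log2 fold change was -0.34 (SE 0.0983, edgeR adjusted p = 0.0388). It was not called with the replicate block (adjusted p = 0.0917) or without a set term (0.358). An exact permutation test within sets, which allows no p below 0.0556 and so could not pass the threshold, gave a 2-sided p of 0.167 (0.200 adjusted over 6 genes). Leaving out siCtrl replicate 1 or 2 (adjusted p = 0.104 and 0.135) or siUSP15 replicate 1 or 2 (0.135 and 0.0948) also ended the call.

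ARRDC4 (ENSG00000140450, chromosome 15, 97960698 to 97973838, plus strand) showed a like pattern at a lower level. In KBM7, it had 5.93 and 5.63 CPM in siCtrl and 10.0 and 7.73 CPM in siUSP15. The groups did not overlap, and ARRDC4 rose by 0.63 on the log2 scale (SE 0.142, edgeR adjusted p = 0.00644), to 153% of the control mean. In K562, it had 20.4, 22.1, 18.4 and 18.2 CPM in siCtrl and 15.4, 14.1, 16.7 and 17.9 CPM in siUSP15. All 4 knockdown libraries were below all 4 controls, and the log2 fold change was -0.31 (SE 0.0886, edgeR adjusted p = 0.0355). The replicate block gave an adjusted p of 0.0889 and the fit without a set term 0.349. Without siCtrl replicate 1 or 2 it was 0.0966 or 0.138, and without siUSP15 replicate 1 or 2 it was 0.111 or 0.0952. The exact permutation test within sets gave the smallest p it allows for 36 arrangements (2-sided p = 0.0556, 0.167 adjusted).

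Between the lines, the response of TXNIP differed by 0.97 on the log2 scale (SE 0.155, edgeR adjusted p = 0.000369) and that of ARRDC4 by 0.94 (SE 0.178, adjusted p = 0.00162), both higher in KBM7. These calls held in every alternative fit and without any 1 of the 12 libraries, with adjusted p of at most 0.00607 for TXNIP and 0.0290 for ARRDC4 when a library was left out. Each line was sequenced and counted on its own, so cell line and run cannot be told apart in these differences. In replicates 1 and 2 of K562, TXNIP was at 64.4% and ARRDC4 at 69.3% of the control mean, against 97.5% and 94.6% in replicates 3 and 4. On the log2 scale, the sets differed by 0.60 for TXNIP (SE 0.0758) and 0.46 for ARRDC4 (SE 0.112) in a fit with a response per set. That fit was chosen after these values had been seen, so the difference is given with no test. USP15 itself was at 45.9% of control in replicates 1 and 2 and 57.7% in replicates 3 and 4. The part of this difference, and of the share of mitochondrial counts, in the TXNIP and ARRDC4 values was not tested.

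Among 12411 genes tested in all 3 fits, ARRDC4 was the gene most like TXNIP over the 12 libraries, with r = 0.988 for log2 CPM minus the siCtrl mean of the same line and set. Next came GTF2E2, a subunit of the basal transcription factor TFIIE, at 0.986. The points share libraries and depth, and the correlation rests on 4 libraries apart from the rest. Centred TXNIP was 0.76 and 0.50 in the KBM7 knockdown libraries and -0.56 and -0.69 in siUSP15 replicates 1 and 2 of K562, where ARRDC4 was 0.79, 0.42, -0.46 and -0.57.

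**Figure D3:**
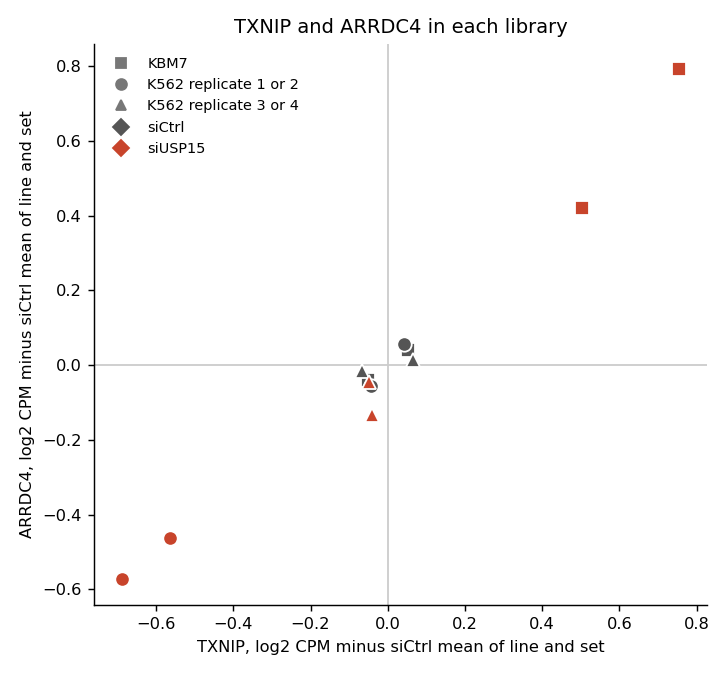
Log2 CPM of TXNIP (x axis) and ARRDC4 (y axis) minus the siCtrl mean of the same cell line and K562 set, with 1 point per library. The 2 KBM7 siUSP15 libraries lay at the upper right (TXNIP 0.76 and 0.50), siUSP15 replicates 1 and 2 of K562 at the lower left (-0.56 and -0.69), and the 8 others near 0.

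ARRDC3 (ENSG00000113369, chromosome 5, 91368724 to 91383359, minus strand) is an arrestin that drives ubiquitination and breakdown of adrenergic and other receptors. It was one of the genes chosen for its difference between the lines. In KBM7, it had 3.76 and 3.98 CPM in siCtrl and 17.8 and 13.5 CPM in siUSP15, or 94 to 109 and 320 to 508 counts. The knockdown mean was 4.05 times the control mean (log2 fold change 2.03, SE 0.150). In K562, siCtrl had 34.9, 43.1, 30.9 and 30.6 CPM and siUSP15 35.0, 27.7, 21.6 and 26.4 CPM. The highest knockdown library thus lay among the controls, and the log2 fold change was -0.34 (SE 0.0884). Unlike TXNIP, ARRDC3 gave much the same value in both K562 sets, -0.34 and -0.36. Its level in KBM7 knockdown cells stayed below every K562 library, though cell line and run cannot be told apart in such levels. An antisense gene, ARRDC3-AS1, overlaps it, and no source states how strand was treated in counting.

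Of the other alpha-arrestins, ARRDC2 fell in KBM7 by 0.40 on the log2 scale (SE 0.0538, edgeR adjusted p = 0.000225) and its response differed from K562 by -0.45 (adjusted p = 0.00124), opposite to that of TXNIP and ARRDC4. ARRDC2 had 58.6 and 59.7 CPM in siCtrl and 43.9 and 45.9 in siUSP15 as the lowest and highest KBM7 values. ARRDC1 was not called in any comparison, and ARRDC5 did not pass the filter. Genes closest to ARRDC3 over the 12 libraries were NR2C2AP (r = 0.988), AL133493.2 (0.985) and the prion protein gene PRNP (0.985). Centred ARRDC3 was 2.18 and 1.79 in the KBM7 siUSP15 libraries, far from all others. These correlations thus mostly restate the difference for which ARRDC3 was chosen.

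Genes around TXNIP, namely MLX factors, thioredoxins and glucose transporters, were lower or not called. Of 8 tested in KBM7, 6 fell, beside 15.8% of all genes, with a list median of -0.19 on the log2 scale beside 0.00067 for all genes. DESeq2 called 3 of these 8. The 4 with the lowest p were the neuronal-type glucose transporter SLC2A3 (-0.47), thioredoxin reductase TXNRD1 (-0.31), the transporter SLC2A1 (-0.19) and MLXIP (-0.19). In K562, 3 of 9 fell, TXNRD1 (-0.27), SLC2A3 (-0.36) and the mitochondrial reductase TXNRD2 (-0.17), beside 8.90% of all genes, with a list median of -0.04. TXNRD2 was not called with the replicate block (edgeR adjusted p = 0.0673). In the test of the difference between lines, edgeR, DESeq2 and limma-voom each called 0 of 9, and 1 of 9 had an unadjusted edgeR p under 0.05. So had 4745 of all 15833 genes.

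CAT (ENSG00000121691, chromosome 11, 34438925 to 34472062, plus strand) encodes catalase, which breaks down hydrogen peroxide in peroxisomes. In KBM7, CAT had 107 and 96.0 CPM in siCtrl and 187 and 182 CPM in siUSP15. The knockdown mean was 182% of the control mean, with a log2 fold change of 0.86 (SE 0.0539). K562 libraries gave 145, 150.2, 168 and 159 CPM in siCtrl and 162, 161, 162 and 156 CPM in siUSP15. These overlapped, and the log2 fold change was 0.04 (SE 0.0414), or 0.13 in the first set and -0.04 in the second. Knockdown libraries of KBM7 were thus above all K562 libraries, and control libraries below them. CPM were scaled within each line, and cell line and run cannot be told apart in this order. The genes most like CAT were GTF2H3 (r = 0.991), a subunit of the basal factor TFIIH, the neutral amino acid transporter gene SLC1A4 (0.990) and the peptidase gene DNPEP (0.987). Centred CAT stood apart only in the KBM7 siUSP15 libraries (0.89 and 0.85), the difference CAT was chosen for. These correlations restate that difference and say little more.

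Other genes for the removal of superoxide and peroxides went both ways in KBM7. Of 17 tested beside CAT, 2 rose and 7 fell, beside 13.2% of all genes higher and 15.8% lower, with a list median of -0.12. Those that rose, named after their values were seen, were glutathione peroxidase GPX1 (0.21), with 197 to 204 CPM in siCtrl and 213 to 250 CPM in siUSP15, and the cytosolic dismutase SOD1 (0.16), with 136 to 147 and 157 to 159 CPM. Mitochondrial superoxide dismutase SOD2 fell by 0.41 on the log2 scale (SE 0.049, edgeR adjusted p = 9.09e-05), from 206 to 214 CPM in siCtrl to 152 to 164 CPM in siUSP15. TXNRD1 fell by 0.31, and the peroxiredoxins PRDX1 and PRDX4 by 0.29 and 0.22. In K562, 2 of 15 fell, beside 8.90% of all genes, TXNRD1 by 0.27 and PRDX6 by 0.10, and the list median was 0.0036. PRDX6 was not called with the replicate block (edgeR adjusted p = 0.101). The response differed between lines for 4 of 17, beside 16.0% of all genes, SOD2 (-0.34), PRDX1 (-0.39), PRDX4 (-0.26) and GCLM (-0.38), a subunit of the enzyme that starts glutathione synthesis, all lower in KBM7.

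CCNG2 (ENSG00000138764, chromosome 4, 77157151 to 77433388, plus strand) encodes cyclin G2, an atypical cyclin that goes with cell-cycle arrest and is a known FOXO target. Its promoter window, chr4:77156957-77157256 on the plus strand, is shown because CCNG2 was low in siUSP15 libraries of both lines. Capitals mark the E-box CACGTG, 30 bases before the start.
CCNG2: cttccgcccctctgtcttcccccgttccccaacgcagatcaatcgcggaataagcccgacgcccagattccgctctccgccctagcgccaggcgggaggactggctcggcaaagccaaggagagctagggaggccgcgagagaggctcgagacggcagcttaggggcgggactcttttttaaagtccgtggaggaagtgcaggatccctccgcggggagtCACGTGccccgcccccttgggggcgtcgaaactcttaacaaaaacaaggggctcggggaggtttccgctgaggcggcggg

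In KBM7, CCNG2 had 46.7 and 47.9 CPM in siCtrl and 33.7 and 31.5 CPM in siUSP15. The groups did not overlap, and CCNG2 fell by 0.54 on the log2 scale (SE 0.0611, edgeR adjusted p = 6.51e-05), to 68.9% of the control mean. In K562, siCtrl replicates had 5.89, 6.0, 5.15 and 4.42 CPM and siUSP15 replicates 3.04, 2.94, 2.94 and 4.25 CPM, or 74 to 144 counts. All knockdown libraries were below all controls, though siUSP15 replicate 4 came close to siCtrl replicate 4. The K562 log2 fold change of -0.72 (SE 0.147) was -0.99 in the first set and -0.43 in the second. The response in KBM7 minus that in K562 was 0.19 (SE 0.159). CCNG2 spans 276238 bases in the annotation, so reads of other transcripts within it may add to its count. Its likest genes were HID1 (r = 0.974), GADD45A (0.968), itself a FOXO target, and the ubiquitin ligase gene MARCH6 (0.968). CCNG2 was chosen for its K562 decrease, so these correlations in part restate that decrease.

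BCL6 (ENSG00000113916, chromosome 3, 187721377 to 187745727, minus strand), a zinc finger repressor of B cell and myeloid genes, was near the limit of detection in KBM7. It had 34 and 30 counts in siCtrl and 29 and 26 in siUSP15, or 1.17 and 1.27 against 1.02 and 1.10 CPM. The log2 fold change of -0.21 (SE 0.250, edgeR adjusted p = 0.583) was not called. In K562, BCL6 had 6.77, 6.25, 4.45 and 4.49 CPM in siCtrl and 4.93, 3.31, 4.50 and 4.93 CPM in siUSP15. These groups overlapped, and the log2 fold change of -0.33 (SE 0.168) had an edgeR adjusted p of 0.191. It was -0.72 in the first set and 0.07 in the second, a difference of 0.79 (SE 0.237), also given with no test. The difference between lines was 0.13 (SE 0.386, adjusted p = 0.855). Of 7 paralogs and corepressors of CCNG2 and BCL6, 3 fell in KBM7, beside 15.8% of all genes, among them CCNI (-0.19) and CCNG1 (-0.16). In K562 edgeR, DESeq2 and limma-voom each called 0 of 7, and 2 of 7 had an unadjusted edgeR p under 0.05. So had 4507 of the 13731 genes tested there.

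Of 45 further FOXO targets, written down as a list with earlier results of these data known, those called went both ways in KBM7, and in K562 all but BCL2L11 were lower. In KBM7, 6 rose and 9 fell of 36 tested, beside 13.2% and 15.8% of all genes, with a median of -0.03 on the log2 scale. These counts leave out TRIM63, which passed the filter through siCtrl alone, with 13 to 19 counts against 0 to 1 in siUSP15. The lowest p belonged to the death ligand gene TNFSF10 (0.94, SE 0.0658, edgeR adjusted p = 1.71e-06), the cell-cycle inhibitor CDKN1A (0.50), the pro-apoptotic PMAIP1 (0.42) and SOD2 (-0.41). TNFSF10 went from 36.5 and 40.3 CPM to 70.0 and 77 CPM, lowest and highest of 2 libraries. CDKN1A went from 46.5 and 46.9 to 64.2 and 68.0 CPM.

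In K562, 1 of 34 rose and 8 fell, beside 6.88% and 8.90% of all genes, and the median was -0.17. With the replicate block 5 of the 34 were called, and BCL2L11 (edgeR adjusted p = 0.0644), BBC3 (0.0671), SESN3 (0.0548) and S1PR1 (0.0871) were not. In replicates 3 and 4 only, 2 targets were called. The 4 with the lowest p were the autophagy genes GABARAPL1 (-0.59) and MAP1LC3B (-0.20), the stress gene GADD45A (-0.52) and the cyclin gene CCND1 (-0.63). Of 32 targets tested in both lines, TRIM63 included, 3 were called in both, and GADD45A alone in 1 direction. Of the 12412 genes tested in both, 6.49% were called in both and 3.79% in 1 direction. The response differed between lines for 10 of 34, with 5 higher and 5 lower in KBM7, beside 16.0% of all genes. Here TRIM63, IL7R, SEPP1 and TNFSF10 were left out, with under 5 counts in every library of at least 1 group, a limit chosen after the counts had been seen. The lowest p belonged to PMAIP1 (0.65), CDKN1A (0.68), SOD2 (-0.34) and KLF6 (0.47). Over all lists of FOXO-related genes, 17 genes were called in K562, 11 with the replicate block and 4 in replicates 3 and 4 only. With no set term it was 0, where 6 had an unadjusted edgeR p under 0.05, DESeq2 called 2 and limma-voom 0. In that fit, 1447 of all 13731 genes had an unadjusted edgeR p under 0.05.

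**Figure D4:**
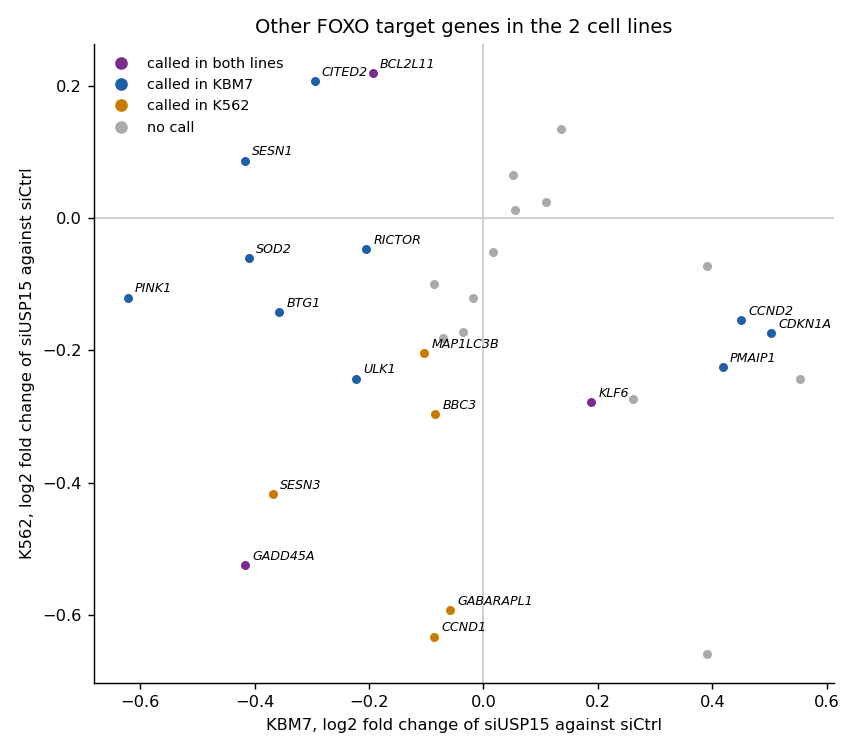
Log2 fold change of siUSP15 against siCtrl for 31 FOXO target genes tested in both lines, KBM7 on the x axis and K562 on the y axis, with 1 point per gene coloured by the line in which edgeR called it. TRIM63 is left out because it passed the KBM7 filter through siCtrl alone, with 0 to 1 counts in siUSP15. Named genes are those called, with GADD45A low in both lines and CDKN1A and PMAIP1 high in KBM7.

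RNAs of proteins that act on FOXO factors were mostly lower where called in KBM7. Of 27 genes for kinases, phosphatases, ligases, deubiquitinase and binding proteins, 2 rose and 8 fell there, beside 13.2% and 15.8% of all genes. In K562, 3 rose and 1 fell, beside 6.88% and 8.90% of all genes. In either direction, 29.0% of all genes were called in KBM7 and 15.8% in K562. DESeq2 called 6 of the 27 in KBM7. In KBM7, the lowest p belonged to SKP2, the F-box protein that marks FOXO1 for breakdown (-0.57, SE 0.0439, edgeR adjusted p = 3.49e-06), the kinase gene STK4 (-0.26) and the AKT-like kinase genes SGK3 (0.62) and SGK1 (-0.78). SKP2 went from 145 and 148 CPM in siCtrl to 98.7 and 99.1 CPM in siUSP15. In K562, SKP2 (0.22), the acetyltransferase CREBBP (0.30) and AKT2 (0.18) rose and YWHAZ, which holds FOXO proteins in the cytoplasm, fell (-0.24). AKT2 was not called with the replicate block (edgeR adjusted p = 0.0569). The response differed between lines for 7 of 27, beside 16.0% of all genes, 6 of them lower in KBM7, with the lowest p for SKP2 (-0.79), CREBBP (-0.47), SGK1 (-0.82) and SIRT1 (-0.39), a deacetylase.

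Lineage genes moved with the knockdown in KBM7, where 13.2% of all genes were called higher and 15.8% lower. Summed over 8 erythroid and megakaryocytic genes, the level was 157 to 186 CPM in siCtrl and 76.4 to 84.6 CPM in siUSP15, and 5 of 6 tested fell. Among the 5 was KLF1, which passed the filter through siCtrl alone, with 35 to 36 counts against 5 in siUSP15. The filter favoured a lower call for KLF1, so its call adds no support. The sum over 8 granulocytic and monocytic genes was 140 to 145 and 187 to 208 CPM, and 5 of 6 rose. The 7 lymphoid genes summed to 110.1 to 119 and 158 to 162 CPM, with 2 of 5 higher, and the 5 fibroblast and endothelial genes to 33.3 to 36 and 16.6 to 20.01 CPM, with 2 of 3 lower. All 4 genes of the leukemia's origin fell, to 314 to 333 CPM. In K562 the erythroid sum was 3112 to 3421 CPM in siCtrl and 2910 to 3390 CPM in siUSP15, and 2 of 8 fell, beside 8.90% of all genes. Fewer of the others passed there, with 1 of 4 origin genes and 1 of 3 granulocytic genes lower. There, edgeR, DESeq2 and limma-voom each called 0 of 1 lymphoid gene and 0 of 3 fibroblast and endothelial genes. At an unadjusted edgeR p under 0.05, 1 of 1 and 1 of 3 of these passed, beside 4507 of all 13731 genes. The part of these shifts in the KBM7 values of CAT, TXNIP, ARRDC3, ARRDC4, FOXO1 and CCNG2 was not tested.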

How the data were processed

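RNA of KBM7 and K562 was analysed from 12 libraries. The authors deposited, per cell line, raw counts per gene, with log2 CPM values and their own fold changes and adjusted p-values, which were not used. Reads were aligned to hg38 with TopHat2 2.1.0, and the submitters' notes list HTSeq, limma and edgeR. For counting, the study's methods name Itreecount instead. Use of strand in counting is not given in the sources used here.

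Counts were filtered with filterByExpr, scaled by TMM and tested by the quasi-likelihood test of edgeR 4.0.16 (R 4.3.3), 2-sided, with Benjamini-Hochberg adjustment over all genes tested. The K562 fits held a term for the library set (replicates 1 and 2 against replicates 3 and 4), because the deposited K562 table is named as batch corrected and sample names run in these sets, though no source names the batches. CPM are TMM-scaled, and levels per kilobase use merged exons of GENCODE release 44. Total counts were 23020401 to 43566543, and no source says whether duplicates were removed. Pairs of replicates within a set differed by 1.73 to 5.10 in chi-square per degree of freedom, so no library was a copy of another. Same-numbered K562 libraries deviated together from the mean of their siRNA group (r = 0.615 to 0.781 in 4 pairs). These deviations still hold the library set, so r cannot show a pairing by number. Indeed siCtrl replicates 2 and 4 correlated best with siUSP15 replicates 1 and 3 of their own set. For KBM7, r was -0.0090, a single value because 2 libraries mirror each other around their mean. The replicate block is given where it ended a call of a named gene.

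The members, the gene lists and the set term were chosen with earlier results of these data known. Named are the members, USP15, every called gene of a list with at most 4 calls in a comparison and otherwise the 4 with the lowest p, and the 3 genes most like TXNIP, CAT, ARRDC3 and CCNG2 by Pearson correlation over the libraries. Some genes under this rule are not reported here. Lists held FOXO factors, their regulators, other targets, alpha-arrestins, MLX and thioredoxin genes, peroxide removal, paralogs of CCNG2 and BCL6, and lineage markers. Alternatives were RLE size factors, no filter, DESeq2 1.42.0, limma-voom (limma 3.58.1), the replicate block, no set term, single sets, 1 fit for both lines and each library left out. Tests were first run on simulated counts. Promoter windows are from RefSeq (GRCh38.p14), where all 9 genes matched by symbol, and figures were drawn with matplotlib 3.10.9.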

Additional observations from a re-analysis of the deposited data

Results flagged for a closer look

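CCNG2 in siUSP15 replicate 4 of K562 stood apart from the other 3 knockdown libraries. It had 4.25 CPM against 2.94 to 3.04 CPM, and its gap to the nearest library was 0.922 of the group's range, above Dixon's critical value for 4 samples. Of 18 K562 groups looked at this way, chance alone marks about 1 in 20. That rate assumes libraries of 1 kind, whereas each group spans both library sets. No other group passed this limit.

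The response to siUSP15 differed between the lines for TXNIP, by 0.97 on the log2 scale, and for ARRDC4, by 0.94, both tested in the fit over 12 libraries and both higher in KBM7. For ARRDC3 the responses differed by 2.38 on the log2 scale. ARRDC3 was chosen for this difference, so it was not tested. In all of these differences, cell line and run cannot be told apart.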

How the results depend on the processing

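No call of the 9 genes changed direction. Of values with no call or test, CAT in K562 went from 0.04 to -0.04 and BCL6 from -0.33 to 0.07 on the log2 scale in replicates 3 and 4 only, and there the differences between lines went from 0.19 to -0.10 for CCNG2 and from 0.13 to -0.27 for BCL6 (-0.07 without K562 siUSP15 replicate 2). The difference of -0.0021 for FOXO3 lay between -0.05 and 0.05 without a library and was 0.09 with K562 replicates 1 and 2 only. In KBM7, 5 genes of the 9 were called, 4 to 6 when a library was left out. The lists had 42 calls in KBM7, 25 with both lines in 1 fit and 20 to 45 without a library, lowest without siCtrl replicate 1 (20) or siCtrl replicate 2 (24). The 42 include TRIM63, which the count of FOXO targets in KBM7 left out. In K562, 2 of 6 genes were called, 1 with DESeq2, 0 with the replicate block, 0 with no set term, 4 in replicates 1 and 2 only and 0 in replicates 3 and 4 only. Of these 6 genes, edgeR gave 3, 2 and 1 an unadjusted p under 0.05 with the replicate block, with no set term and in replicates 3 and 4 only. Over all genes, these fits gave such a p to 3854 and 1447 of 13731 and to 2433 of 13806. Without a library the count of called genes among the 6 was 0 to 2, at 0 without replicate 1 or 2 of either siRNA. The lists had 17 calls in K562, 27 with no filter, 11 with the replicate block, 0 with no set term (6 unadjusted, 2 by DESeq2, 0 by limma-voom), 40 in replicates 1 and 2 only and 4 in replicates 3 and 4 only, and 9 to 24 without a library, with 10 without siCtrl replicate 1, 9 without siCtrl replicate 2 and 9 without siUSP15 replicate 1. Between the lines, 2 genes were called in each fit, and 2 to 2 without a library. The lists had 23 calls there, 2 with no set term, 38 with K562 replicates 1 and 2 only, and 14 to 27 without a library, with 14 without KBM7 siCtrl replicate 1 or KBM7 siUSP15 replicate 1. The 23 include TRIM63 and IL7R, which the count of targets differing between lines left out. The exact permutation test had 2 genes at its smallest p within sets and 1 with no set term. Over all genes, DESeq2 called 2513 in KBM7 in place of 4345 (2214 to 5129 without a library), K562 fell from 2167 calls to 1022 with the replicate block and 0 with no set term (1447 unadjusted, 307 by DESeq2, 0 by limma-voom), with 4775 in replicates 1 and 2 only, 277 in replicates 3 and 4 only and 555 to 2639 without a library. The difference between lines went from 2529 to 268 with no set term, 3998 with K562 replicates 1 and 2 only and 1326 to 2786 without a library. The replicate block changed no other call of the 9 genes. Where a KBM7 library was left out, the lone library was assumed to vary like the other group. The causes of these changes were not tested. BCL6 in KBM7 rested on 26 to 34 counts per library and CCNG2 in K562 on 74 to 144, which limits the precision of these values.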
